A study of Homo sapiens with 10 samples.

Results

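The 10 genes described here encode enzymes that make serine, asparagine, proline and one-carbon units, together with PCK2, and they are 10 of the 20327 genes in each deposited table. They are grouped by function, with the Ensembl identifiers of the tables mapped to symbols. No measured value enters the rule, but the set was put together with earlier results of these data known. They comprise the serine enzymes PHGDH, PSAT1 and PSPH, the mitochondrial one-carbon enzymes SHMT2, MTHFD2 and ALDH1L2, asparagine synthetase (ASNS), the proline enzymes ALDH18A1 and PYCR1, and PCK2, the mitochondrial phosphoenolpyruvate carboxykinase.

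The RNA came from hTERT RPE-1, a wild-type human line of retinal pigment epithelium immortalised with telomerase, and all results come from this 1 line. All cells, controls included, had been kept for 48 h in DMEM F-12 medium with 0.1% fetal bovine serum. In the 30 min experiment, 3 libraries from cells given the solvent DMSO for 30 min were set against 3 from cells given merbarone, an inhibitor of topoisomerase II, at 200 µM for 30 min. In the 2 h experiment, 2 libraries from untreated cells, which received no solvent, were set against 2 from cells given 200 µM merbarone for 2 h. The libraries held polyadenylated RNA, and the study concerned DNA supercoiling and the pausing of RNA polymerase II near promoters.

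PHGDH, PSAT1 and PSPH act in sequence to turn the glycolytic intermediate 3-phosphoglycerate into serine. SHMT2 splits serine into glycine and a folate-bound one-carbon unit inside mitochondria, and MTHFD2 and ALDH1L2 carry that unit through further oxidation steps. As background, ATF4, a transcription factor translated when cells lack amino acids or are stressed in other ways, is known to activate several of these genes, ASNS among them, and it binds composite C/EBP-ATF elements.

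Promoter sequences are shown for the 4 enzymes that had the largest ratios of mean RPKM after 2 h of merbarone, because members of a pathway that move together invite a look at their promoters. The RefSeq promoter table of GRCh38.p14 matched 6 of the 10 genes by symbol (ASNS, PHGDH, PSAT1, MTHFD2, ALDH18A1 and PCK2). Each sequence below holds the 250 bases before the annotated start, 5′ to 3′ on the gene's strand. Capitals mark TGATGNAA, the core of C/EBP-ATF elements, or CCAAT, both searched on both strands.
ASNS: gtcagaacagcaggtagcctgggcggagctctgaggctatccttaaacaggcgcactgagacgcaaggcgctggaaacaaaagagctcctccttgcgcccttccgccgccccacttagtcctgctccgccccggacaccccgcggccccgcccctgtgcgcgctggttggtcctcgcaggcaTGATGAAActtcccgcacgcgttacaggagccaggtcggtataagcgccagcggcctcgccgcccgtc
PSAT1: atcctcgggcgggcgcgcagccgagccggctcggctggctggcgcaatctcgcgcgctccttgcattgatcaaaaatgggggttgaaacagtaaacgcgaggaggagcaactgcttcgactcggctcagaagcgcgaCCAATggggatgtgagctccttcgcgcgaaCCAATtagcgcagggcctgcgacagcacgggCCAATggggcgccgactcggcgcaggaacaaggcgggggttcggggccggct
MTHFD2: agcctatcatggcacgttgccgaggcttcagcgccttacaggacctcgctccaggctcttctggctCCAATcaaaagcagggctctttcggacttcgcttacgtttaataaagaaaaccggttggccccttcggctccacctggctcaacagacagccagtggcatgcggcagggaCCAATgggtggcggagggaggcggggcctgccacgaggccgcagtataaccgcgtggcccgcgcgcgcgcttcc
PCK2: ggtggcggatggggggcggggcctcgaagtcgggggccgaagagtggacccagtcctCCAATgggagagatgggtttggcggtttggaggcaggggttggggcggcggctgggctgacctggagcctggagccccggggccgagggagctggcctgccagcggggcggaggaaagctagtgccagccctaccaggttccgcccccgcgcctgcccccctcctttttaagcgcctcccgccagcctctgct
These windows lie at chr7:97872409-97872658 on the minus strand for ASNS, and on the plus strand at chr9:78296875-78297124 for PSAT1, chr2:74198365-74198614 for MTHFD2 and chr14:24094061-24094310 for PCK2.

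TGATGNAA was found in 1 of the 6 genes with a window, ASNS, where it begins 68 bases before the start. The table holds a second window for ASNS (chr7:97872166-97872415), from another annotated start, which has neither motif and is not printed. Of all 35116 windows of that length in the table, 1104 (3.14%) held it, which came to 3.89% of 27305 genes. CCAAT was found in 4 of the 6 genes, once in PCK2 and in PHGDH, 2 times in MTHFD2 and 3 times in PSAT1. It was present in 32.0% of all windows and in 37.0% of all genes, and it was added as a motif after these sequences had been seen. ALDH18A1 held neither motif in its window. A match is a run of letters and says nothing of binding, and a window without a match says only that these letters are not in it.

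The deposited values are RPKM, reads scaled by gene length and library depth. The lengths behind them lay within 1% of the genomic span, introns included, for 74.9% of 17234 genes, so a gene with long introns has a low RPKM for its number of transcripts. Whole reads could be recovered from the values for 17680 genes, all those with any value above 0. Recovered totals were 26633780 to 38225538 reads in the 30 min experiment and 11956652 to 13691014 in the 2 h experiment. Replicates of a group correlated with Pearson's r of 0.981 to 0.994 over genes in the first and 0.992 to 0.996 in the second. The labels do not say whether replicates were separate cultures, so the p-values measure only the spread between these libraries. Of the markers of pigment epithelium, RPE65, RLBP1, TYR and TYRP1 stayed at or below 0.0656 RPKM in all 10 libraries, while BEST1, PMEL and OTX2 were at 2.10 or above and MITF at 0.218 to 0.415. The leukocyte gene PTPRC did not exceed 0.00758 RPKM, and vimentin (VIM) lay between 560 and 1105. TUBB3, looked at as a neuronal marker, was present at 8.42 to 19.1 RPKM. The keratins KRT8 and KRT18 lay at 1.80 to 6.64 and 14.15 to 69.4 RPKM, and COL1A1 at 1.48 to 5.92.

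Because levels of different genes can be compared only per length, reads were also divided by the length of each canonical transcript in place of the whole gene (transcript-length RPKM). In untreated cells SHMT2 was highest by this measure, at 64.4 ± 1.25 (SD, n = 2). PHGDH followed at 51.6 ± 2.14, ALDH18A1 at 48.0 ± 0.280 and PYCR1 at 47.7 ± 8.03. The last 3 did not stand apart, since the spread of PYCR1 covered both others. A second tier held MTHFD2 at 16.8 ± 1.92, PSAT1 at 16.1 ± 1.61 and PSPH at 11.9 ± 0.712, of which the first pair differed by less than their spread. ASNS at 7.20 ± 0.0127 and PCK2 at 5.49 ± 0.222 were lower. ALDH1L2, at 0.0725 ± 0.0547, rested on 3 and 11 reads. After 2 h of merbarone SHMT2 stood at 101.9 ± 7.42 and ASNS at 29.5 ± 5.99. PSAT1 then stood at 38.3 ± 6.55, MTHFD2 at 33.8 ± 1.47 and PCK2 at 22.1 ± 5.28, so that the spreads of neighbouring genes from PSAT1 down to PCK2 met or overlapped. Any intron reads that were counted are included in these levels.

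**Figure D1:**
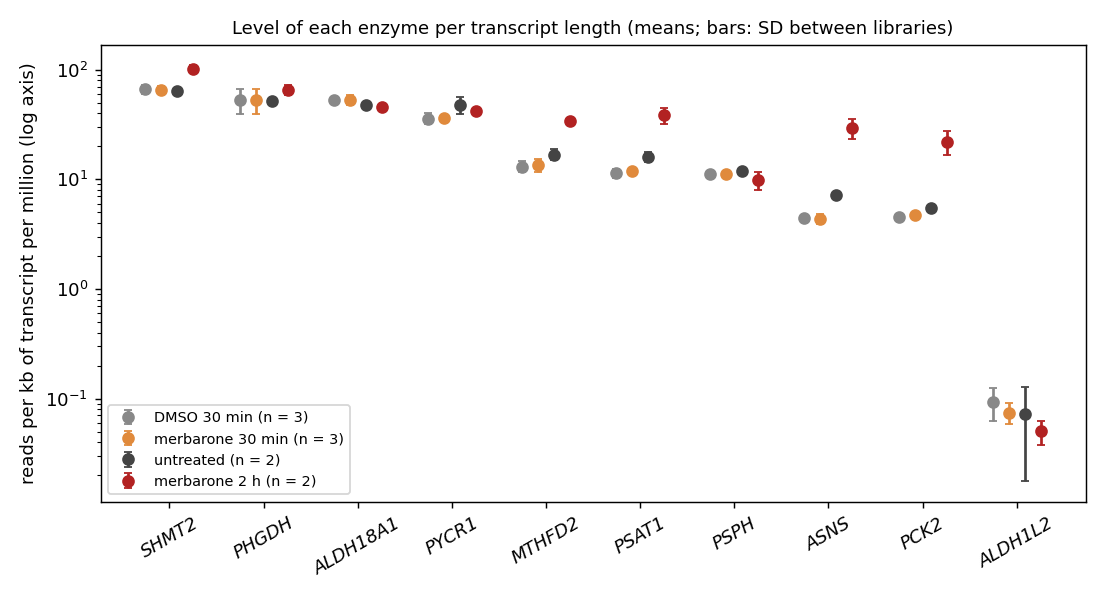
Level of each enzyme in transcript-length RPKM, reads scaled by canonical transcript length and depth (log axis), by group; points are means and bars are SDs over 2 or 3 libraries. SHMT2 is the highest gene in every group, at 64.4 in untreated cells and 101.9 after 2 h of merbarone, and ALDH1L2 is the lowest.

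No enzyme differed detectably between merbarone and DMSO at 30 min. Apart from ALDH1L2, the ratio of mean RPKM in merbarone to that in DMSO lay between 0.975 for ASNS and 1.05 for PSAT1. In none of the 10 genes did all treated libraries lie beyond all control libraries, against 2.4% of 14012 genes with 10 or more reads on average. In limma on log2(RPKM + 1), with a mean of at least 1 RPKM required, 0 of the 5 members tested passed an adjusted p of 0.05, against 0.0154% of 6500 genes (1 gene). Before adjustment 24 genes had p under 0.05, and none was a member. That is far below a share of 0.05 of the 6500 genes, so this fit was conservative and could miss changes. With the replicate number as a block, limma called 8 genes (0.123%), again no member. In voom on the recovered reads, which could test all 10, 0 were called against 0.00714% of 14012 genes, and their adjusted p-values were all 1.0.

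SHMT2 may serve as an example of the abundant members at this time. Its RPKM was 23.2, 25.0 and 28.1 with DMSO, and with merbarone it was 22.7, 26.0 and 26.6. The ranges overlapped almost fully, and the voom log2 fold change was -0.02 (SE 0.097). PHGDH varied most among the expressed members, with 0.822, 1.28 and 1.40 RPKM in DMSO and 0.822, 1.34 and 1.35 in merbarone. Its low values were the replicate 1 library of each group, and with the replicate block its limma log2 difference was 0.00 with an SE of 0.027 against 0.140 without. MTHFD2 and PYCR1 were instead highest in the replicate 1 libraries, at 3.43 and 9.12 RPKM in DMSO and 3.61 and 8.67 in merbarone. ASNS stood at 0.503, 0.547 and 0.516 RPKM in DMSO and at 0.470, 0.572 and 0.486 in merbarone. ALDH1L2, a 10-formyltetrahydrofolate dehydrogenase of mitochondria, had only 12 to 35 reads per library in DMSO and 14 to 24 in merbarone, too few to show a change of modest size, and its voom log2 fold change of -0.32 had an SE of 0.341.

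**Figure D2:**
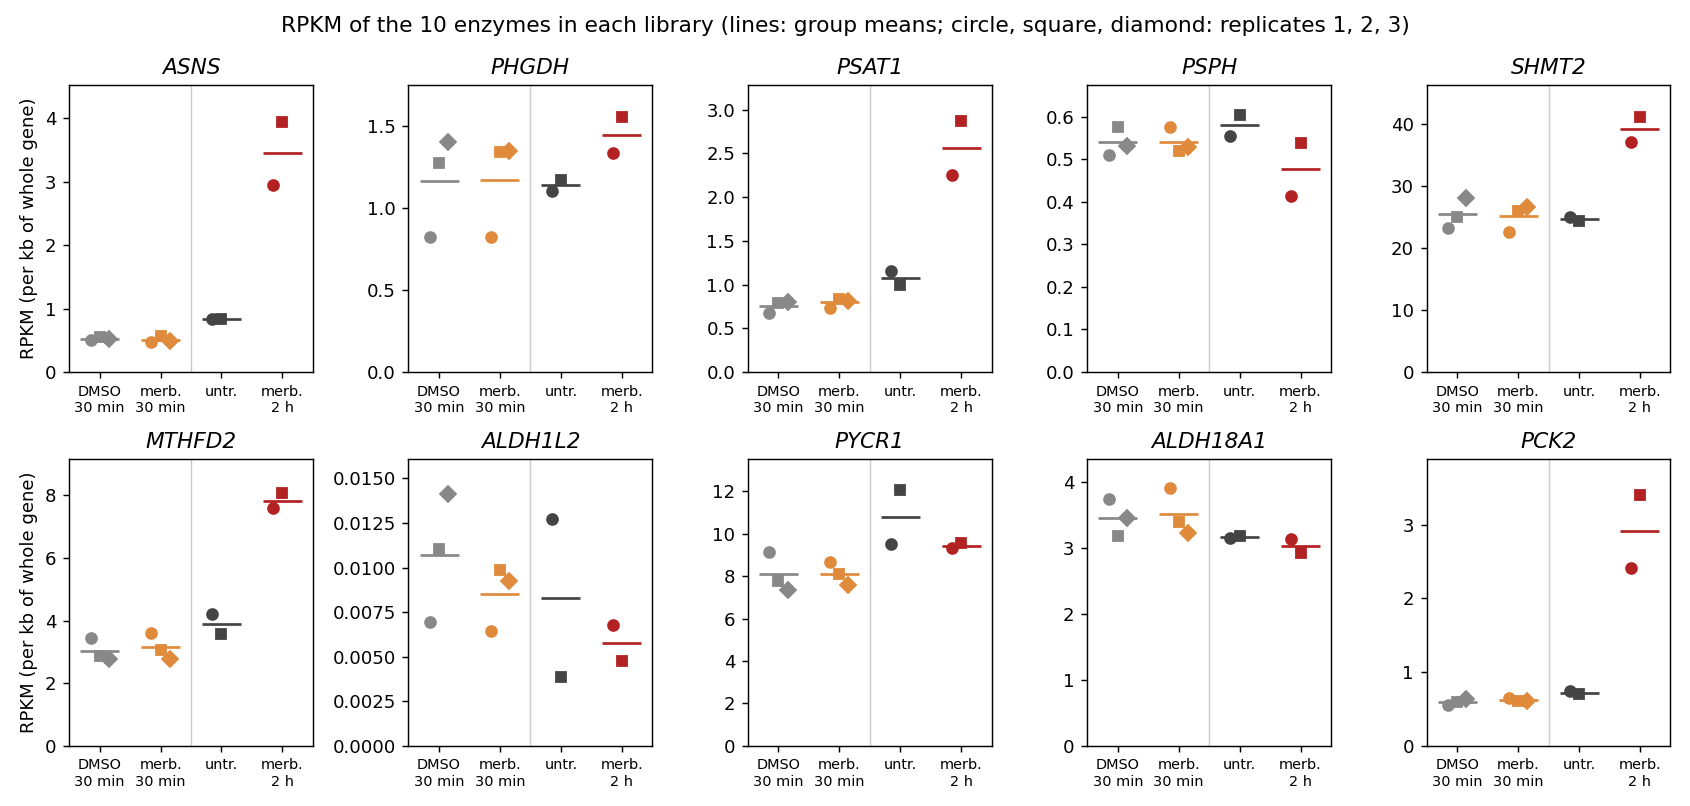
RPKM of each enzyme in each of the 10 libraries (linear axes from 0, scaled per gene; lines are group means and the symbol shape gives the replicate number). In ASNS, PSAT1, PCK2, MTHFD2, SHMT2 and, by a smaller step, PHGDH both 2 h merbarone libraries lie above both untreated libraries. At 30 min the groups overlap in all 10 genes.

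RNA of 5 enzymes was higher after 2 h of merbarone: ASNS, PCK2, PSAT1, MTHFD2 and SHMT2, with ratios of mean RPKM from 4.10 down to 1.58. In such bulk RNA, a change in the share of cells that express a gene and a change in its RNA per cell cannot be told apart. In limma they were the called ones among 8 members tested, against 5.98% of 6620 genes called higher and 7.1% called lower. ASNS and PCK2 were tested only because their treated libraries lifted their mean over 1 RPKM, so that count is not support for the group. Without the filter, limma called 0 of 10 members, with adjusted p from 0.0812 to 0.103 for these 5, in a fit that called 0.286% of 16810 genes higher. The voom fit on recovered reads needed no such lift and called 6 of 9 members higher, PHGDH being the addition, against 7.94% of 13440 genes. It called 0 members lower, against 6.09% of genes. The median log2 fold change of those 9 members was 0.66 in voom, beside 0.00 over all genes tested. In libraries rather than tests, both treated libraries lay above both untreated ones in 6 of the 10 members (28.8% of genes averaging 10 reads or more) and below them in 2 (29.4%). With 2 against 2 libraries such a separation is frequent, and only the fits are read as calls below.

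The asparagine enzyme ASNS, which transfers an amide group from glutamine to aspartate, had the largest ratio of the 10. Its RPKM was 0.841 and 0.839 in the untreated libraries and 2.95 and 3.94 after 2 h of merbarone. Both treated libraries lay far above both controls, and the recovered reads went from 229 and 205 to 825 and 1049. The mean rose from 0.840 ± 0.0015 to 3.44 ± 0.699 RPKM (SD, n = 2 each). On the log2(RPKM + 1) scale, which understates changes of low genes, the log2 fold change was 1.26 (SE 0.103, limma adjusted p = 1.0e-04). In voom it was 2.02 (SE 0.155, adjusted p = 1.05e-08). It ranked 41 of 6620 genes from the highest fold change in limma and 55 of 13440 in voom.

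PCK2, which makes phosphoenolpyruvate from oxaloacetate in mitochondria, followed closely. It stood at 0.744 and 0.702 RPKM in untreated cells and at 2.42 and 3.40 after merbarone, again without overlap. The voom log2 fold change was 1.98 (SE 0.175, adjusted p = 9.22e-08), and limma gave 1.17 (SE 0.109, adjusted p = 2.17e-04). PCK2 (GRCh37, chr14:24563262-24579807, plus strand) lies wholly inside NRL, a gene on the other strand, over 16546 bases. NRL moved with it, from 158 and 182 reads in untreated cells to 562 and 756 after merbarone, and exceeded PCK2 by only 14 to 54 reads in each of the 10 libraries. Use of strand in the counting is not given in the sources used here, so the values of PCK2 and NRL cannot be told apart.

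In the serine pathway PSAT1 was called in both fits, PHGDH in voom alone and PSPH in neither; differences between these genes were not tested. PSAT1, the aminotransferase of the second step, had 1.15 and 1.00 RPKM in untreated cells and 2.25 and 2.87 after 2 h of merbarone. The groups were well separated, with a ratio of means of 2.38, a limma log2 fold change of 0.78 (SE 0.094, adjusted p = 0.00126) and a voom one of 1.24 (SE 0.137, adjusted p = 2.26e-06). PHGDH, the dehydrogenase of the first step, stood at 1.11 and 1.17 RPKM against 1.33 and 1.56. Its treated libraries were above its controls by a smaller step, a ratio of 1.27. The adjusted p was 0.109 in limma (log2 fold change 0.19, SE 0.071) and 0.0494 in voom (0.34, SE 0.113). The voom call was lost without either 2 h merbarone library (voom adjusted p = 0.163 without replicate 1 and 0.55 without replicate 2), and without replicate 2 the limma value fell to 0.13. PSPH, the phosphatase that releases serine in the last step, had 0.555 and 0.604 RPKM in untreated cells and 0.414 and 0.539 after merbarone. Both treated values were the lower ones, but by voom the log2 difference of -0.29 (SE 0.155) did not pass the test (adjusted p = 0.217), and PSPH was below the RPKM filter of limma. None of these 3 genes overlaps another gene of the tables.

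Of the mitochondrial one-carbon enzymes, MTHFD2 and SHMT2 rose. MTHFD2, the methylenetetrahydrofolate dehydrogenase, stood at 4.20 and 3.58 RPKM in untreated cells and at 7.59 and 8.07 after merbarone. Treated and untreated libraries were far apart, with a ratio of 2.01 and a limma log2 fold change of 0.85 (SE 0.097, adjusted p = 8.36e-04). MTHFD2 (GRCh37, chr2:74413299-74444692, plus strand) shares 5962 bases of that annotation with ENSG00000264324 on the other strand, which had 1511 and 1633 reads in untreated cells and 2321 and 2361 after merbarone. The authors' length for MTHFD2 was 19012 bases against a span of 31394, so the stretch they counted may not be the one annotated here, and a part of shared reads in its change was not tested. SHMT2, the serine hydroxymethyltransferase, had 25.1 and 24.4 RPKM against 37.2 and 41.2. Its ratio of 1.58 was smaller than that of MTHFD2, but the groups were again separate (limma log2 fold change 0.64, SE 0.108, adjusted p = 0.00718). Voom gave SHMT2 a log2 fold change of 0.66 (SE 0.104, adjusted p = 2.19e-04). Without the replicate 2 library of 2 h merbarone, SHMT2 no longer passed limma's test, with a log2 fold change of 0.57. In the 4 voom fits without 1 library its log2 fold change lay between 0.586 and 0.735. ALDH1L2 was at the edge of detection, with 11 and 3 reads in untreated libraries and 6 and 4 in treated ones, and a change in it was not detectable at this depth.

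The proline enzymes did not pass the test in either direction. ALDH18A1, which makes pyrroline-5-carboxylate from glutamate, stood at 3.15 and 3.18 RPKM in untreated cells and at 3.13 and 2.93 after merbarone. The treated values were lower by little, with a limma log2 difference of -0.05 (SE 0.079, adjusted p = 0.711). PYCR1, which reduces pyrroline-5-carboxylate to proline, had 9.50 and 12.1 RPKM in untreated cells and 9.34 and 9.54 after merbarone. Only the second untreated library stood apart from the other values. The limma log2 difference was -0.17 (SE 0.118, adjusted p = 0.364). It became -0.32 (adjusted p = 0.0109, limma) without untreated replicate 1 and -0.01 (limma adjusted p = 0.962) without untreated replicate 2, the library at 12.1 RPKM.

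**Figure D3:**
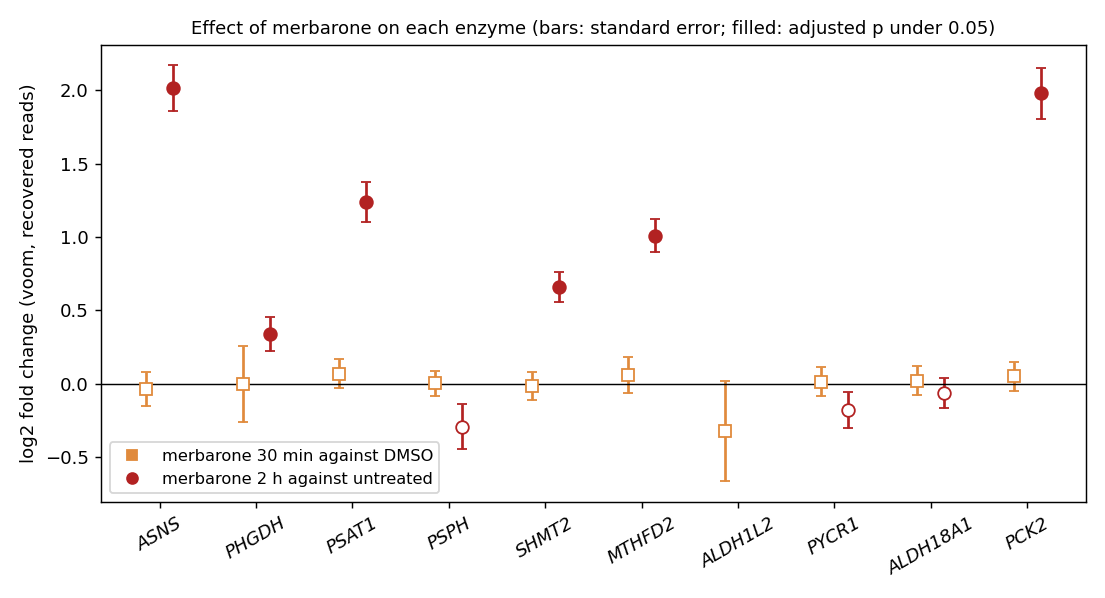
Log2 fold change of each enzyme from voom on recovered reads, at 30 min against DMSO (squares) and at 2 h against untreated cells (circles); bars are standard errors and filled symbols passed an adjusted p of 0.05. The 6 filled circles are ASNS at 2.02, PCK2 at 1.98, PSAT1 at 1.24, MTHFD2 at 1.01, SHMT2 at 0.66 and PHGDH at 0.34; no square is filled, and ALDH1L2 has no circle because it was below 10 reads.

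Whether the 2 effects differed was tested with a contrast over all 10 libraries, the effect at 2 h minus the effect at 30 min. Duration, solvent control and experiment change together in it and cannot be told apart. In limma 4 members were called higher, in a fit that called 1.27% of 6558 genes higher. ASNS, PCK2 and PSAT1 passed its filter only through their 2 h merbarone libraries (means of 0.597, 0.636 and 0.851 RPKM over the other 8), so that count is given as a description. The difference was 1.28 for ASNS (SE 0.113, limma adjusted p = 7.75e-04) and 1.15 for PCK2 (SE 0.122, limma adjusted p = 0.00171) on the log2(RPKM + 1) scale. For PSAT1 it was 0.74 (SE 0.106, limma adjusted p = 0.0098) and for MTHFD2 0.81 (SE 0.149, limma adjusted p = 0.0311). In voom, whose filter all 10 members passed, the called ones were ASNS, PCK2 and PSAT1, against 0.439% of genes called higher, and MTHFD2 had an adjusted p of 0.0848. These voom calls did not hold in every fit without 1 library. ASNS and PCK2 were not called without untreated replicate 1, nor without untreated replicate 2. Their differences moved little in these fits, to 2.055 and 2.051 for ASNS, beside 2.054 with all libraries. For PCK2 they were 1.973 and 1.891, beside 1.93. PSAT1 was lost in 7 of 10 voom fits without 1 library, with adjusted p from 0.0213 to 0.211 over the 10; the 3 that kept the call left out DMSO replicate 1, 30 min merbarone replicate 1 or 2 h merbarone replicate 1. SHMT2 missed the threshold in limma at 0.66 (SE 0.145, adjusted p = 0.0639). With the replicate block SHMT2 and PHGDH passed as well (limma adjusted p = 0.00401 and 0.0414), in a fit that called 7.69% of genes higher. Voom with the block called 6 of 10 members higher. The additions were MTHFD2, SHMT2 and PHGDH (voom adjusted p = 4.92e-05, 2.76e-04 and 0.0211). The block also paired the 2 h libraries, which were not taken as pairs, and the number of genes called by that voom fit is given below. In limma the MTHFD2 call was lost in 7 of the 10 fits that each left out 1 library (adjusted p from 0.0141 to 0.16 over the 10), all but those without DMSO replicate 1 or 3 or 30 min merbarone replicate 1. That of PSAT1 was lost without untreated replicate 2 (limma adjusted p = 0.0637).

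The untreated cells of the 2 h experiment had higher levels of some members than the DMSO cells of the 30 min experiment, for instance 0.840 ± 0.0015 against 0.522 ± 0.0225 RPKM for ASNS and 1.08 ± 0.108 against 0.756 ± 0.0700 for PSAT1. SHMT2 stood at 24.7 ± 0.482 and 25.4 ± 2.47 RPKM. These controls differ in solvent and experiment, and no test was made between them.

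Around the enzymes, 44 related genes were followed: enzymes and carriers next to them in serine, glycine, folate, proline, glutamate, cysteine and phosphoenolpyruvate metabolism. The list was chosen with earlier results of these data known. At 30 min 0 of 27 tested were called in limma and 0 of 40 in voom. After 2 h limma called 2 of 28 higher and 0 lower, beside 5.98% and 7.1% of all genes tested, with a median log2 fold change of -0.08 beside -0.05. These were SLC25A32, a mitochondrial folate carrier (1.18 ± 0.204 to 1.72 ± 0.145 RPKM, log2 fold change 0.32, limma adjusted p = 0.0374), and GPT2, a mitochondrial alanine aminotransferase (0.824 and 0.878 RPKM in untreated cells, 1.10 and 1.30 after merbarone, log2 fold change 0.25, limma adjusted p = 0.0449). GPT2 passed the RPKM filter only through its treated libraries. Voom, whose filter no gene of the list passed through 1 group alone, called 5 of 39 higher and 1 lower, beside 7.94% and 6.09% of all genes tested. Its median was -0.04 beside 0.00. CTH, which makes cysteine from cystathionine, had the largest change, from 0.0295 ± 0.0120 to 0.187 ± 0.0194 RPKM (voom log2 fold change 2.68, adjusted p = 3.16e-05). That is a change from a very low level, with untreated libraries at 0.021 and 0.038 RPKM, far below the 1 RPKM filter of limma. The one called lower was GLDC, the glycine decarboxylase (voom log2 fold change -1.37, adjusted p = 0.0208). It was at 0.0195 ± 4.8e-04 RPKM in untreated cells and 0.00764 ± 0.0026 after merbarone, so this call too rests on very low values.

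Several paralogues of the members were looked at in the same fits. MTHFD2L, which resembles MTHFD2, was called higher in voom (0.67, adjusted p = 0.0203), from a low level of 0.0416 ± 0.00245 RPKM. The cytosolic enzymes SHMT1 (limma log2 fold change -0.08, adjusted p = 0.387) and MTHFD1 (0.07, limma adjusted p = 0.523) did not pass. Nor did MTHFD1L (0.18, voom adjusted p = 0.342). PCK1 and ALDH1L1 were below the filters of both fits. Whether a member and its paralogue differ was not tested.

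Next, 21 factors of the amino acid response and of serine gene control were followed. This list was chosen with earlier results of these data known, so its counts are a description and not support for the response. After 2 h voom tested all 21 and called 11 higher and 0 lower, beside 7.94% and 6.09% of all genes tested. The median voom log2 fold change of the 21 was 0.35, beside 0.00 over all genes tested. Limma called 10 of 19 higher (5.98% of all genes tested) and 0 lower, but CHAC1, SESN2 and ATF3 among the 10 passed its filter only through their treated libraries. CHAC1, a glutathione-degrading enzyme known as a target of this response, went from 0.448 ± 0.0657 to 26.7 ± 4.23 RPKM (voom log2 fold change 5.86, adjusted p = 8.78e-12). DDIT4, an inhibitor of mTORC1 signalling, went from 28.9 ± 4.38 to 235.4 ± 30.7 RPKM (voom log2 fold change 3.03, adjusted p = 8.6e-13). SESN2, a leucine-sensing protein, and DDIT3, the stress transcription factor CHOP, rose by 2.99 and 2.12 in log2 by voom (adjusted p = 2.96e-11 and 2.26e-10). ATF4 mRNA itself stood at 45.6 and 53.3 RPKM in untreated cells and at 60.0 and 66.1 after merbarone. The treated libraries were higher, but the call depended on the unit (log2 fold change 0.35, adjusted p = 0.0962 in limma and 0.0357 in voom). ATF4 is known to be controlled at translation, which RNA abundance does not measure. At 30 min 0 of 16 were called in limma and 0 of 21 in voom. With the replicate block, voom called 1 of the 21 higher, beside 0.0928% of all genes tested. It was ATF3, a stress-induced transcription factor, at 0.0487, 0.0517 and 0.0491 RPKM in DMSO and at 0.360, 0.460 and 0.159 after 30 min of merbarone. All 3 treated libraries lay above all 3 controls, and the voom log2 fold change was 2.64 with the block (SE 0.212, adjusted p = 9.89e-04) and 2.58 without it (SE 0.552, adjusted p = 1.0).

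**Figure D4:**
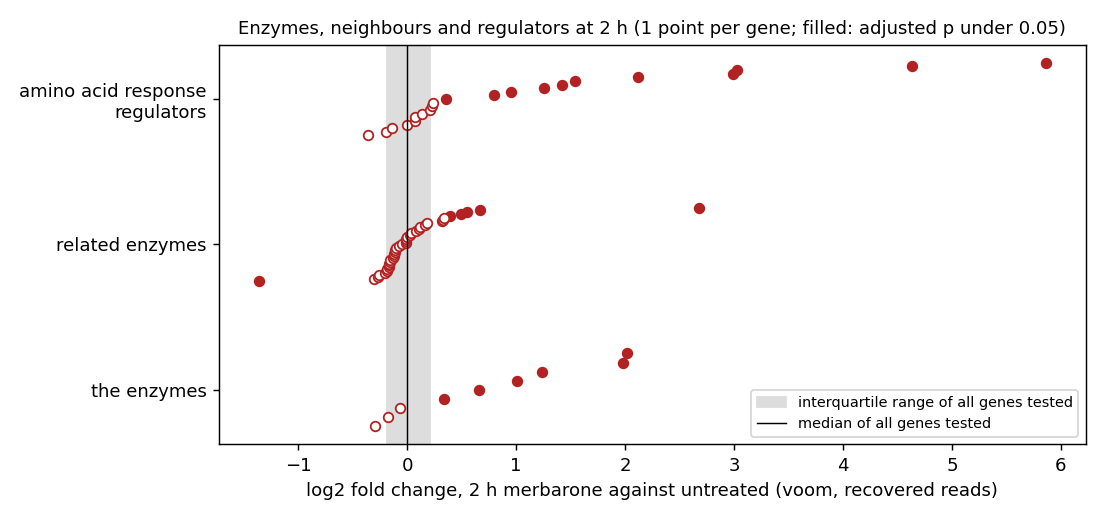
Log2 fold change at 2 h (voom on recovered reads) of each tested gene among the enzymes, the related enzymes and the amino acid response regulators; filled points passed an adjusted p of 0.05, and the grey band is the interquartile range of all 13440 genes tested, from -0.19 to 0.21. The call counts are 6 of 9, 6 of 39 (1 of them lower) and 11 of 21. Members and lists were chosen with earlier results of these data known.

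The genes whose levels moved most like the members were sought over the 10 libraries, each gene's log2(RPKM + 1) first centred on the control mean of its experiment. Likeness was Pearson's r with the mean profile of the 8 members that passed the RPKM filter, 3 of them (ASNS, PCK2 and PSAT1) only through the 2 h merbarone libraries; the libraries share 2 experiments and the groups set most of the variation, so r is a description only. The 5 highest non-members were ACKR3 (r = 0.996), MARS1 (0.996), SESN2 (0.995), ETS2 (0.992) and CHAC1 (0.992). SESN2 and CHAC1 also passed the filter only through the 2 h merbarone libraries, with means of 0.713 and 0.444 RPKM over the others. Their r is therefore no support for likeness. ACKR3 is a chemokine scavenger receptor, MARS1 is the methionyl-tRNA synthetase and ETS2 is a transcription factor. MARS1 stood at 3.38 and 3.67 RPKM in untreated cells and at 6.35 and 7.13 after 2 h of merbarone. Among the members themselves, r was 0.999 for ASNS, 0.998 for PCK2 and 0.993 for PSAT1, 0.961 for SHMT2 and 0.952 for MTHFD2. It was 0.530 for PHGDH, -0.34 for ALDH18A1 and -0.54 for PYCR1; these members contributed to the profile they were set against. The profile was thus most like those of ASNS, PCK2 and PSAT1, though r does not measure how much each gene contributed to it.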

How the data were processed

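Polyadenylated RNA of 10 libraries was measured. The authors deposited, per the file headers, 1 table of RPKM per Ensembl gene and library. Build hg19 (GRCh37) and Bowtie 1.2.0 come from the submitters' processing notes; counter, annotation and strand are not given in the sources used here. Groups follow the labels.

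Genes averaging 1 RPKM or more were tested as log2(RPKM + 1) in limma 3.58.1 (R 4.3.3; lmFit, eBayes with trend), two-sided, Benjamini-Hochberg over all genes tested, threshold 0.05, each experiment alone. Reads were recovered as whole multiples of the value of 1 read (tolerance 0.001) and tested with limma's voom at a mean of at least 10 reads. Python 3.11.15, pandas 2.3.3 and SciPy 1.17.1 were used, and scripts were tested on simulated data. Coordinates are from GENCODE release 44 on GRCh37.

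Same-numbered libraries deviated together at 30 min (r = 0.925, 0.646 and 0.605), so the numbers were taken to pair them; at 2 h r was 0.30 over 2 pairs, which was not taken as pairing. Alternatives were no filter, 5 RPKM, a pseudocount of 0.1, median scaling, the block, all 10 libraries in 1 fit, voom, and leaving out each library. Voom without each library and the CCAAT motif were added after seeing the data. Members and lists were chosen with earlier results of these data known. Named genes are the members, ATF4, paralogues (1 is not reported here), the 4 largest called changes per list with groups apart, and the 5 genes most like the members.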

Additional observations from a re-analysis of the deposited data

Results flagged for a closer look

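The effect of merbarone at 2 h differed from its effect at 30 min, by the limma contrast over all 10 libraries, for 4 enzymes. On the log2(RPKM + 1) scale the effect at 2 h minus the effect at 30 min was 1.276 for ASNS, 1.149 for PCK2, 0.814 for MTHFD2 and 0.743 for PSAT1. The fit called 1.27% of all genes tested higher, and ASNS, PCK2 and PSAT1 passed its filter only through their 2 h merbarone libraries. The values of PCK2 cannot be told apart from those of NRL. MTHFD2 was not called in voom without the replicate block (adjusted p = 0.0848), but was called in voom with it (adjusted p = 4.92e-05). Its limma call was lost in 7 of 10 fits without 1 library. The voom calls of the other 3 without the block were each lost in some fits without 1 library. Time, kind of control and experiment cannot be told apart in these differences, and groups of 2 or 3 libraries are too small for a look at single outlying libraries.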

How the results depend on the processing

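Of the enzymes, the calls at 2 h for ASNS, PCK2, PSAT1 and MTHFD2 held under every alternative run that tested them except the fit without a filter; where 1 library was left in a group, it was assumed to vary like the other group. There limma called 0 of 10 members (0.286% of 16810 genes higher), with adjusted p from 0.0812 to 0.103 for the 5 rising members, and the median over members was 0.42. At 5 RPKM or more 2 of 3 members tested were called. With the replicate block at 2 h, on 1 residual degree of freedom, PHGDH passed (limma adjusted p = 0.0177).

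Genes called at 30 min numbered 0 without a filter, 2 at 5 RPKM, with median scaling and with all 10 libraries in 1 fit, 8 with the replicate block and 13 in voom with the block, which called 1 regulator (ATF3); leaving out 1 library gave 0 to 2. At 2 h there were 53 without a filter, 397 at 5 RPKM, 2129 with the block, 1886 in voom and 3487 in voom with the block, and 328 to 2464 without 1 library. Related enzymes called at 2 h numbered 0 without a filter and at 5 RPKM, 6 with the block and in voom, 10 in voom with the block, 1 with all 10 libraries in 1 fit and 0 to 4 without 1 library; regulators numbered 5 without a filter and 9 to 12 without 1 library. Members called at 2 h numbered 4 to 6 without 1 library.

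In the contrast of the 2 effects, genes called numbered 361 without a filter, 36 at 5 RPKM, 1255 with the block, 66 in voom, 2100 in voom with the block and 38 to 86 without 1 library. Members called were 0 of 2 at 5 RPKM and 1 to 4 without 1 library. Related enzymes called were 1 without a filter, 2 with the block, 1 in voom and 5 in voom with the block; regulators were 4 at 5 RPKM, 11 in voom with the block and 4 to 8 without 1 library.

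Where a direction turned, no fit called a change. PSPH at 30 min was -0.001 in voom with the block. Leaving out 1 library, the 30 min log2 fold changes ranged from -0.128 to 0.017 for ASNS, -0.117 to 0.124 for PHGDH, -0.003 to 0.121 for PSAT1, -0.044 to 0.049 for PSPH, -0.079 to 0.053 for SHMT2, -0.039 to 0.112 for MTHFD2, -0.049 to 0.089 for PYCR1 and -0.045 to 0.063 for ALDH18A1, their median from -0.035 to 0.063, and the contrast for ALDH1L2 from -0.765 to 0.795. Without a 2 h merbarone library, ASNS and PCK2 fell below the filter of the contrast. Except where the number of genes tested changed, the cause was not tested. Depth limits ALDH1L2 in all fits.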
